A study of Mus musculus with 9 samples.

Results

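Ttr, Foxj1, Aqp1, Otx2, Lmx1a, Msx1, Msx2 and Folr1 are 8 genes used as markers of the choroid plexus and the cortical hem, at the dorsal midline of the embryonic forebrain. They were taken by symbol from the 34590 genes of the count files, and all 8 were found in every file. The libraries came from mouse telencephalons, the part of the forebrain that forms the cortex and basal ganglia, at embryonic day E12.5 on a background of mixed lineage. Wild-type embryos gave 5 libraries (WT 1 to WT 5). Embryos with a double knockout of Lats1 and Lats2 by Nestin-Cre gave 4 (dKO 1 to dKO 4). Nestin-Cre acts in neural progenitors and their descendants, so blood, vessels and meninges in the same dissection need not carry the deletion. The labels describe 9 embryos and do not give litters or whether controls carried Cre.

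LATS1 and LATS2 are the kinases of the Hippo pathway that hold the coactivators YAP and TAZ out of the nucleus, where these act with TEAD factors. The cortical hem is a strip of neuroepithelium at the medial edge of the cortex that secretes WNT and BMP proteins. The choroid plexus epithelium lies beside it, arises under BMP signalling, and produces cerebrospinal fluid. Its cells carry motile cilia, secrete transthyretin and move water, ions and folate.

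The sequences upstream of these genes are shown because TEAD, OTX, forkhead and homeobox factors are the classes of regulator linked to them. RefSeq promoter windows, from 250 bases before to 50 bases after an annotated start, were available for 5 of the 8 genes, in 8 windows of which 4 belong to Otx2. The windows below run from -250 to -11, all lie outside annotated exons, and are given 5′ to 3′ on the gene's strand in build GRCm38.p6. They are chr1:167689308-167689547 (plus strand) for Lmx1a, chr14:48667655-48667894 (minus strand) for Otx2 at its first listed start, and chr6:55336049-55336288 (plus strand) for Aqp1. Capitals mark the match to GGAATG, a TEAD motif, in Lmx1a, and to CTAATTG, a homeobox motif found here on the opposite strand, in Otx2.
Lmx1a: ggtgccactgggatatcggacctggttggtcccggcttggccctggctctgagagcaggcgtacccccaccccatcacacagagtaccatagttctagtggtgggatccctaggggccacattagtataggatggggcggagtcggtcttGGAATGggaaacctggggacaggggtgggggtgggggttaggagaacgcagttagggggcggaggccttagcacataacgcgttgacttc
Otx2: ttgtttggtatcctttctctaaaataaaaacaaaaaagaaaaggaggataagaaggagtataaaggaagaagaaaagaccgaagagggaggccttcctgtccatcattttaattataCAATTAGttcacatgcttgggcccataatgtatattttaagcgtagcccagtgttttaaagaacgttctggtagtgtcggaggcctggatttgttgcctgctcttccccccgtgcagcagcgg
Aqp1: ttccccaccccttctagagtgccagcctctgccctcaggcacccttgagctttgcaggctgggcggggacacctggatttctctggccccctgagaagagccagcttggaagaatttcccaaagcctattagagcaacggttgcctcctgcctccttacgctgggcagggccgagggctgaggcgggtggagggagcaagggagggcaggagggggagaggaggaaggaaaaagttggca
GGAATG, searched on both strands, stood in 1 of the 8 windows, that of Lmx1a at position -100, against 14.7% of all 32851 windows. CTAATTG stood in 1, that of Otx2 at position -133, against 1.98%. TAATCC, an OTX motif, was in 1 window, the third listed Otx2 start, against 7.06%. TGTTTAC, a forkhead motif, was in none of the 8 and in 3.65% of all. The Aqp1 window held none of the 4 motifs. These matches describe letters only.

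Each library held between 12906561 and 45803152 gene counts. The spike-ins are 92 synthetic ERCC RNAs that were added per counted cell, and they took between 198776 and 706808 counts. Gene counts per spike-in count, a measure of RNA per cell, were 58.1 ± 6.10 (SD, n = 5) in WT and 79.1 ± 5.90 (SD, n = 4) in dKO. The log2 difference of 0.45 had an exact permutation p of 0.00794 (two-sided), the smallest that 126 assignments allow. WT 2, WT 3 and WT 4 stood apart from the other libraries in the share of reads in no gene, which was 39.3% to 41.3% against 32.0% to 35.6%, so the results for the members and the related gene lists are also given without them. Lats1 was at 132 ± 4.55 CPM (counts scaled to the library's gene total with TMM factors) in WT and 59.8 ± 1.07 in dKO, with no overlap. Lats2 was at 27.0 ± 6.18 CPM in WT and 43.4 ± 9.46 in dKO. Which exons were deleted is not stated, so these whole-gene counts check the label through Lats1 only.

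Both scalings below were fitted with edgeR's quasi-likelihood test over 17182 genes, and a change was called at an adjusted p under 0.05. Per spike-in count, which compares RNA per counted cell, 5 of the 8 genes were called higher in dKO and 0 lower. Among all genes 61.1% were called higher and 0.698% lower, so the share of members that rose was close to that of any gene. None had an unadjusted p under 0.05 in the lower direction, and DESeq2 and limma-voom called 0 lower as well. Relative to all genes, with TMM scaling, 1 gene rose and 1 fell, where 13.7% of all genes were called higher and 12.0% lower. Across the 8 the median log2 change was 0.57 per spike-in count and 0.12 relative to all genes, beside 0.43 and -0.01 for all genes. When WT 2, WT 3 and WT 4 were left out, 5 of 8 were called higher per spike-in count (49.1% of all genes) and 0 lower (0.250% of all genes), with 0 lower at an unadjusted p under 0.05. In the same comparison relative to all genes edgeR called 0 in either direction, with 1 at an unadjusted p under 0.05 (higher), where 2.51% of all genes were called higher and 0.949% lower. In these whole-tissue libraries fewer cells of a type and less RNA per cell of that type cannot be told apart.

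**Figure D1:**
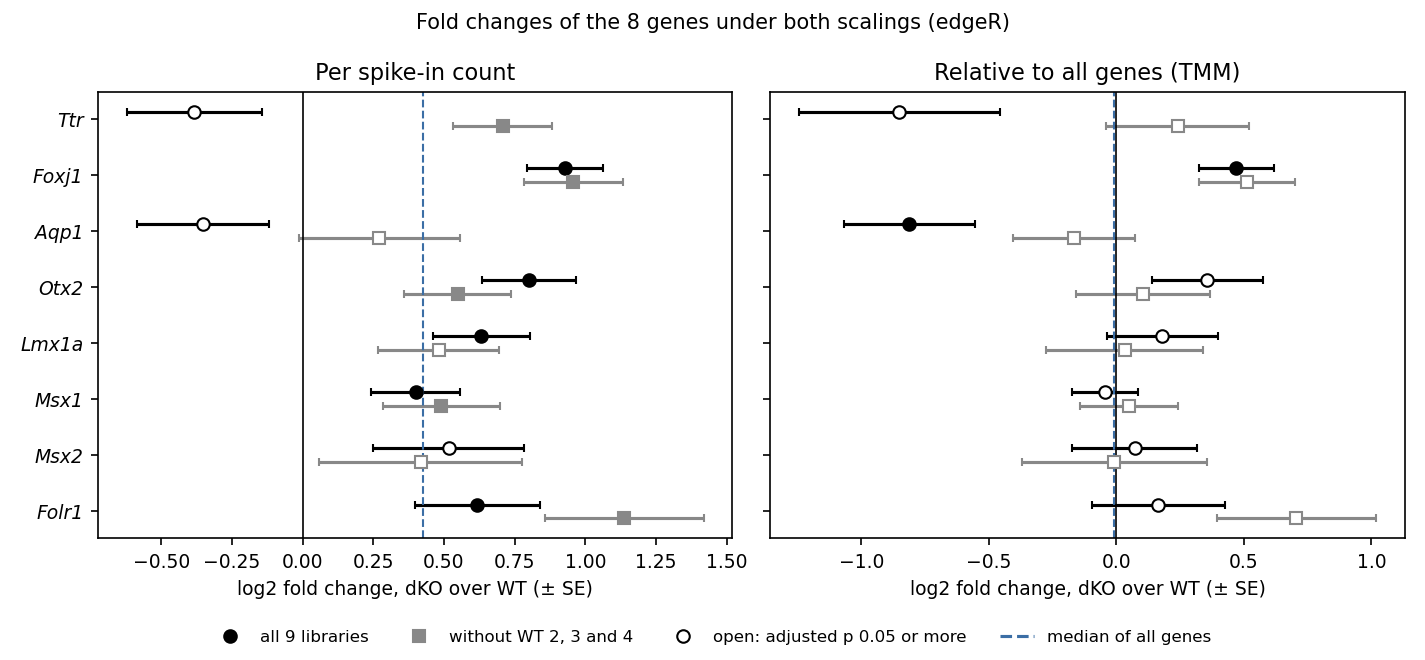
Log2 fold changes of dKO over WT (± SE, edgeR) for the 8 genes, per spike-in count on the left and relative to all genes on the right. Black circles use all 9 libraries, grey squares leave out WT 2, WT 3 and WT 4, open symbols did not pass an adjusted p of 0.05, and the dashed line is the median of all genes over 9 libraries (0.43 and -0.01). Foxj1 has the highest value in both panels with all libraries, and Ttr lies on opposite sides of 0 with and without the 3 libraries.

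Foxj1, the forkhead factor that switches on genes of motile cilia, rose under both scalings. Its counts per 1000 spike-in counts were 1.74, 1.55, 1.58, 1.30 and 1.15 in WT 1 to WT 5 and 2.21, 3.01, 2.98 and 2.93 in dKO 1 to dKO 4. Every dKO library was above every WT library, as for 48.4% of all genes, and no other member was separated in this way, with 0 of 8 wholly lower (0.134% of all genes). The log2 change was 0.93 (SE 0.13, edgeR adjusted p = 1.31e-06), and 0.96 (SE 0.18, adjusted p = 5.90e-05) without WT 2, WT 3 and WT 4. Scaled to all genes, Foxj1 was at 32.1, 31.2, 24.9, 21.3 and 18.4 CPM in WT and 31.6, 35.8, 37.9 and 35.6 CPM in dKO. On this scale the groups overlapped, since WT 1 was above dKO 1. The groups overlapped on it for all 8 members, where 12.6% of all genes lay wholly higher and 9.74% wholly lower in dKO. The relative log2 change was 0.47 (SE 0.15, edgeR adjusted p = 0.0350), and 0.51 (SE 0.19, adjusted p = 0.171) without WT 2, WT 3 and WT 4. The relative call was also lost when any of WT 3, WT 4, WT 5, dKO 2, dKO 3 or dKO 4 was left out alone.

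Ttr encodes transthyretin, the carrier of thyroid hormone and retinol that choroid plexus cells secrete in bulk. It was at 143.9, 354.3, 348.4, 197.7 and 68.6 CPM in WT 1 to WT 5 and at 100.1, 100.8, 140.4 and 155.0 CPM in dKO 1 to dKO 4. WT 2, WT 3 and WT 4 were the 3 highest libraries, WT 5 was the lowest of all 9, and all dKO libraries lay between WT 5 and WT 4. The WT libraries differed 5.16-fold among themselves. The relative log2 change was -0.85 (SE 0.39, edgeR adjusted p = 0.136) and that per spike-in count -0.38 (SE 0.24, edgeR adjusted p = 0.158). The sign turned without WT 2, WT 3 and WT 4: 0.71 (SE 0.17, adjusted p = 0.00178) per spike-in count and 0.24 (SE 0.28, adjusted p = 0.695) relative to all genes. Per spike-in count Ttr was also called lower when any of WT 1, WT 5, dKO 3 or dKO 4 alone was left out (-0.45 to -0.61, adjusted p from 0.00130 to 0.0396). Relative to all genes it was called lower without WT 5 (-1.08, adjusted p = 0.0158).

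Aqp1 encodes the water channel of the apical membrane of choroid plexus cells, which is also made by red blood cells and vessels. Its level was 3.59, 6.83, 6.95, 5.38 and 3.18 CPM in WT and 2.31, 3.65, 2.62 and 3.54 CPM in dKO. WT 2, WT 3 and WT 4 were again the 3 highest, and WT 1 and WT 5 lay among the dKO values. Aqp1 fell relative to all genes by 0.81 on the log2 scale (SE 0.26, edgeR adjusted p = 0.0374), and its value per spike-in count was -0.35 (SE 0.23, adjusted p = 0.184). Without the 3 libraries the values were -0.17 (SE 0.24, adjusted p = 0.758) and 0.27 (SE 0.28, adjusted p = 0.421). The relative call was also lost without any of WT 2, WT 3, WT 4, dKO 1 or dKO 3 alone. All 10 erythroid and all 10 endothelial markers were detected. Their summed levels were 196 to 347 and 250 to 319 CPM in WT, and 159 to 246 and 234 to 317 CPM in dKO. Their part in the Aqp1 values was not tested.

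Folr1 encodes folate receptor alpha, which carries folate across the choroid plexus epithelium. It was at 0.236, 0.291, 0.357, 0.248 and 0.130 counts per 1000 spike-in counts in WT and at 0.282, 0.460, 0.467 and 0.342 in dKO. WT 5 was the lowest library, and dKO 2 and dKO 3 were above every WT library. Folr1 rose per spike-in count by 0.62 on the log2 scale (SE 0.22, edgeR adjusted p = 0.0153), and its relative change was 0.16 (SE 0.26, adjusted p = 0.688). Leaving out WT 2, WT 3 and WT 4 gave 1.14 (SE 0.28, adjusted p = 0.00177) and 0.71 (SE 0.31, adjusted p = 0.250). The call per spike-in count was lost without WT 5 (adjusted p = 0.0550) or without dKO 3 (adjusted p = 0.0520).

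**Figure D2:**
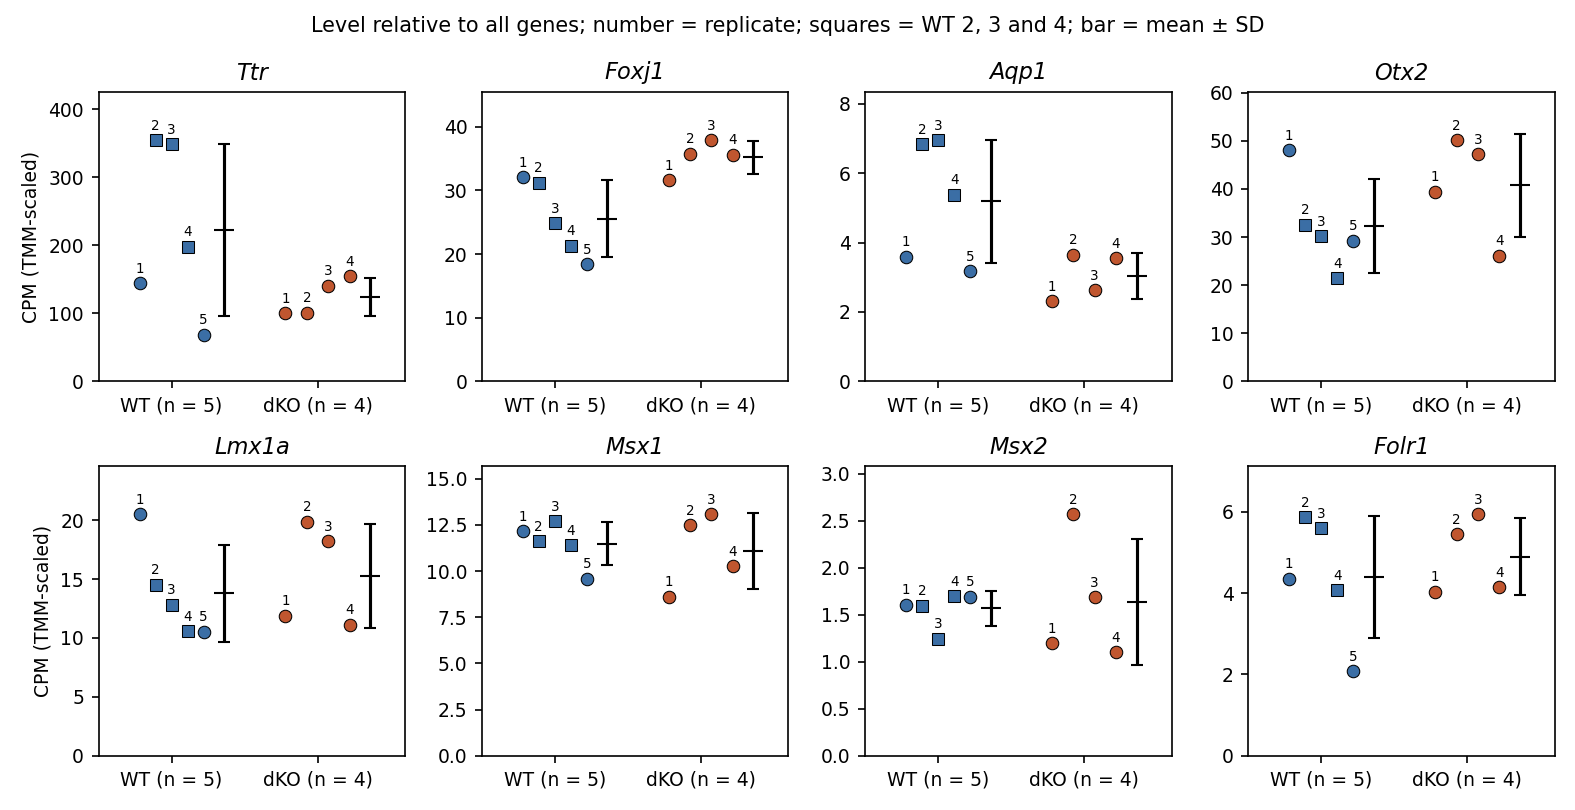
Level of each of the 8 genes relative to all genes (TMM-scaled CPM, linear axes from 0) in 5 WT and 4 dKO libraries, numbered by replicate, with the mean ± SD at the right of each group. Squares are WT 2, WT 3 and WT 4, which are the highest 3 libraries for Ttr and Aqp1 but not for Otx2, Lmx1a or Foxj1.

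Otx2 is a homeodomain factor that choroid plexus cells need to form, and it is also made in the diencephalon and midbrain. Its level was 2.60, 1.62, 1.92, 1.31 and 1.83 counts per 1000 spike-in counts in WT and 2.76, 4.23, 3.72 and 2.15 in dKO. Only WT 1 overlapped the dKO range. Otx2 rose per spike-in count by 0.80 on the log2 scale (SE 0.17, edgeR adjusted p = 0.000147), and by 0.55 (SE 0.19, adjusted p = 0.0167) without WT 2, WT 3 and WT 4. In CPM it was at 48.0, 32.6, 30.2, 21.5 and 29.3 in WT and at 39.5, 50.1, 47.3 and 26.1 in dKO, and the relative change was 0.36 (SE 0.22, adjusted p = 0.257), or 0.11 (SE 0.26, adjusted p = 0.873) without those 3 libraries. Exons of Otx2 overlap those of Otx2os1 on the opposite strand and Gm49154 on the same strand in GENCODE M21. Whether the counting used strand is not stated, so the Otx2 count is uncertain to that extent.

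Lmx1a, a LIM-homeodomain factor of the roof plate and cortical hem, followed a similar order of libraries. It was at 1.11, 0.723, 0.818, 0.646 and 0.657 counts per 1000 spike-in counts in WT and at 0.832, 1.67, 1.43 and 0.916 in dKO. As for Otx2, WT 1 was the highest WT library and dKO 2 and dKO 3 the highest dKO libraries. Lmx1a rose per spike-in count by 0.63 (log2, SE 0.17, edgeR adjusted p = 0.00228), but the adjusted p was 0.0574 (log2 0.48, SE 0.21) without WT 2, WT 3 and WT 4. Its relative change was 0.18 (SE 0.22, adjusted p = 0.592), or 0.03 (SE 0.31, adjusted p = 0.974) without them.

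Msx1 and Msx2 encode homeobox repressors induced by BMP signalling at the dorsal midline. Msx1 was at 0.658, 0.577, 0.810, 0.695 and 0.598 counts per 1000 spike-in counts in WT and at 0.602, 1.05, 1.03 and 0.845 in dKO. All dKO libraries other than dKO 1 were above every WT library. It rose per spike-in count by 0.40 on the log2 scale (SE 0.16, edgeR adjusted p = 0.0282), below the 0.43 of the median gene, and its relative change was -0.04 (SE 0.13, adjusted p = 0.835). Msx2 had only 18 to 71 counts in a library. Its level was 0.0869, 0.0792, 0.0793, 0.103 and 0.106 counts per 1000 spike-in counts in WT and 0.0838, 0.216, 0.132 and 0.0906 in dKO, so that dKO 2 and dKO 3 were above WT and the other two were within it. Its change was 0.52 per spike-in count (SE 0.27, edgeR adjusted p = 0.0909) and 0.07 relative to all genes (SE 0.24, adjusted p = 0.864). It was called higher per spike-in count without dKO 1 (0.71, adjusted p = 0.0215) or without dKO 4 (0.63, adjusted p = 0.0404). With WT 2, WT 3 and WT 4 left out, Msx1 had 0.49 per spike-in count (adjusted p = 0.0458) and 0.05 relative (adjusted p = 0.926), and Msx2 0.42 (adjusted p = 0.324) and -0.01 (adjusted p = 0.994). The Msx1 call was lost in 7 of 18 alternatives, among them those without WT 2, WT 5, dKO 2 or dKO 3 alone (log2 0.30 to 0.36, adjusted p from 0.0553 to 0.125).

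**Figure D3:**
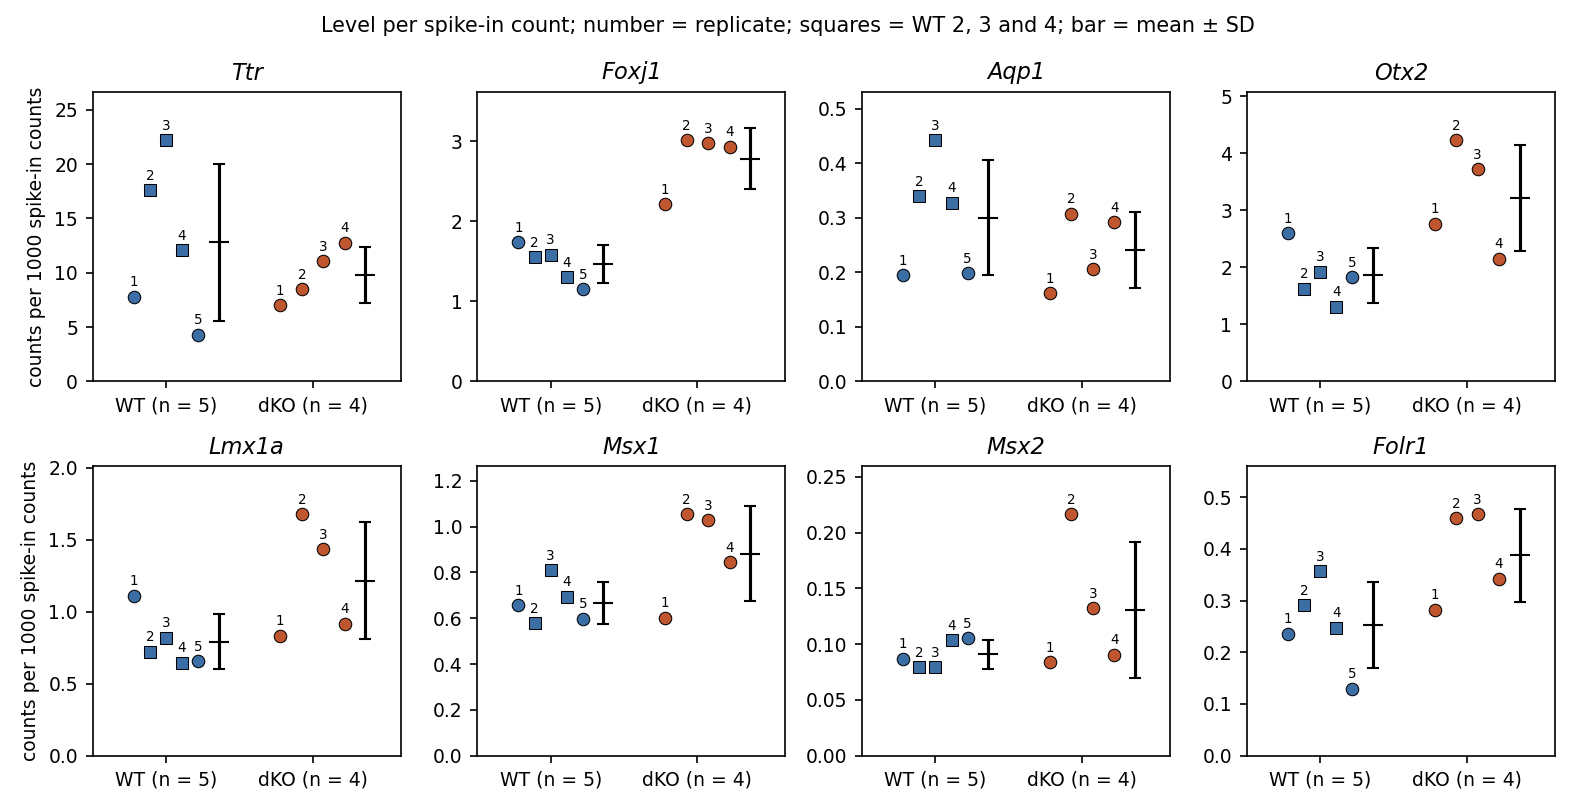
Level of each of the 8 genes per 1000 spike-in counts (linear axes from 0), with libraries numbered by replicate and the mean ± SD beside each group. The 4 dKO libraries for Foxj1, between 2.21 and 3.01, are all above the WT libraries, while the groups overlap for the other 7 genes.

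Divided by exon length in GENCODE M21, the levels spanned a wide range. Ttr was highest at 188 ± 106 CPM per kilobase in WT (SD, n = 5). Foxj1 (9.76 ± 2.29), Otx2 (7.66 ± 2.30), Lmx1a (4.06 ± 1.21) and Msx1 (3.71 ± 0.382) followed. Aqp1 (1.97 ± 0.670), Folr1 (1.91 ± 0.657) and Msx2 (0.478 ± 0.0566) were lowest. The ranges over WT libraries overlapped between neighbours from Foxj1 to Msx1 and between Aqp1 and Folr1, so those neighbours were not separated. In dKO the first 5 kept this order at 105 ± 23.6, 13.4 ± 0.994, 9.65 ± 2.54, 4.50 ± 1.30 and 3.59 ± 0.666 CPM per kilobase (SD, n = 4). There Folr1 (2.13 ± 0.412) stood above Aqp1 (1.15 ± 0.253), and only Lmx1a and Msx1 overlapped as neighbours.

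The members varied more than most genes among libraries of 1 genotype. The coefficient of variation (SD over mean) of Ttr over the WT libraries was 56.7%, at the 99.4th percentile of 14904 genes with a mean of at least 1 CPM, whose median was 6.97%. Folr1, Aqp1, Otx2, Lmx1a and Foxj1 were at the 97.1st, 96.9th, 95.5th, 95.3rd and 90.8th percentiles in WT, and Msx2 and Msx1 at the 72.1st and 66.5th. In dKO the order was different: Msx2 was highest at the 97.7th percentile, Ttr was at the 88.7th and Foxj1 was at the 47.8th. The genes compared were not matched for level, and Msx2 had only 18 to 71 counts in a dKO library. Counting noise in members with few counts was therefore not separated from variation among embryos.

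In some members the libraries stood in 1 of 2 orders. These were picked out after the values were seen and so are given with no test. For Ttr and Aqp1 (2 of 8 members) the 2 highest libraries were both among WT 2, WT 3 and WT 4. The share among the 14904 genes was close to this, at 20.9%. For Otx2 and Lmx1a (2 of 8) the 3 highest were WT 1, dKO 2 and dKO 3, as for 2.54% of these genes. Foxj1, Msx1, Msx2 and Folr1 had neither order. The ratio of Ttr to Otx2 counts was 10.9, 11.5 and 9.19 in WT 2, WT 3 and WT 4, and 3.00 and 2.35 in WT 1 and WT 5. It was 2.54, 2.01, 2.97 and 5.93 in dKO 1 to dKO 4. WT 2, WT 3 and WT 4 were thus high in this ratio and WT 1 and WT 5 lay within the dKO range.

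**Figure D4:**
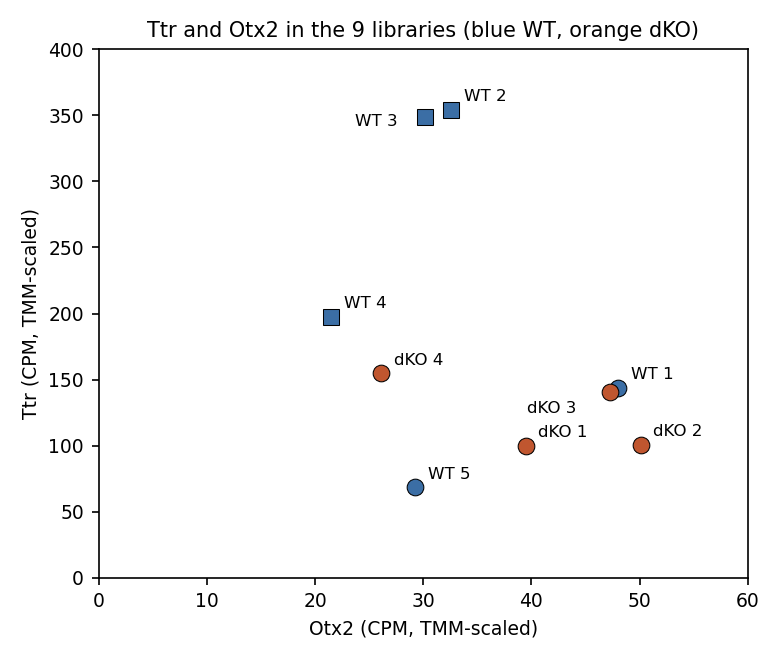
Ttr against Otx2 (TMM-scaled CPM) in each of the 9 libraries, blue for WT and orange for dKO, with squares for WT 2, WT 3 and WT 4. Those 3 libraries have the highest Ttr but Otx2 of only 21.5 to 32.6 CPM, while WT 1 lies next to dKO 3.

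Further genes of the choroid plexus epithelium, 24 in all, were compared with both orders. Of the 18 with a mean of at least 1 CPM, 9 had their 2 highest libraries among WT 2, WT 3 and WT 4, and 0 had WT 1, dKO 2 and dKO 3 as the highest 3. The first order was not particular to these genes. It was found for 7 of 12 telencephalic progenitor and neuron markers, 2 of 3 retina and pigment epithelium markers, 8 of 24 motile cilia genes and 2 of 5 cortical selector factors. It was found for 0 of the measured hem signals and 0 of the measured meninges, endothelial, erythroid, macrophage, surface ectoderm and diencephalon markers. Among the 9 were Kcne2, a potassium channel subunit, at 17.9, 16.7 and 9.60 CPM in WT 2 to WT 4, 7.34 and 2.64 in WT 1 and WT 5, and 2.93 to 8.30 in dKO. Clic6, a chloride channel family member, was at 42.6, 37.1 and 23.5 CPM in WT 2 to WT 4, 25.5 and 13.1 in WT 1 and WT 5, and 18.3 to 26.7 in dKO. Of 23 tested, 7 rose and 0 fell per spike-in count, where 61.1% of all genes rose and 0.698% fell (0 of the 23 lower at an unadjusted p under 0.05, and 0 by DESeq2 and limma-voom), with a median log2 change of 0.20 beside 0.43 for all genes. Leaving out WT 2, WT 3 and WT 4, 13 rose (49.1% of all genes) and 0 fell, again with 0 lower at an unadjusted p under 0.05. The median was then 0.64, beside 0.43 for all genes in that fit, in which WT 1 and WT 5 were the only WT libraries.

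Of the 23 choroid plexus genes, 2 rose and 3 fell relative to all genes, where 13.7% of all genes rose and 12.0% fell. Slc29a4, a monoamine transporter, fell from 23.8 ± 2.53 CPM (SD, n = 5) to 17.5 ± 1.04 (SD, n = 4), a log2 change of -0.46 (SE 0.08, edgeR adjusted p = 0.00223), and its groups did not overlap. Ace, the angiotensin-converting enzyme, fell from 2.54 to 1.69 CPM (-0.59, adjusted p = 0.0170). Slc13a4, a sulfate transporter, fell by 1.08 (adjusted p = 0.0379). Slc4a2, an anion exchanger, rose from 38.8 to 44.4 CPM (0.20, adjusted p = 0.0309), and the cation channel Trpv4 rose from 0.487 to 1.71 CPM (1.77, adjusted p = 0.0338), with dKO 4 at 4.15 CPM and the other dKO libraries between 0.514 and 1.22. Without WT 2, WT 3 and WT 4 edgeR called 0 of the 23 in either direction, with 3 higher and 1 lower at an unadjusted p under 0.05.

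Signals of the cortical hem are the WNT, BMP and R-spondin proteins that pattern the tissue around it. Of 11 with a mean of at least 1 CPM, 6 (Wnt3a, Wnt8b, Bmp7, Rspo1, Rspo2 and Rspo3) had WT 1, dKO 2 and dKO 3 as the highest libraries, as Otx2 and Lmx1a did. Wnt8b, a ligand of the hem, was at 45.5, 28.7, 23.1, 22.9 and 29.2 CPM in WT and at 31.3, 54.1, 46.1 and 25.1 CPM in dKO. Of these 11 genes, 9 rose and 0 fell per spike-in count, where 61.1% of all genes rose and 0.698% fell (0 of the 11 lower at an unadjusted p under 0.05, and 0 by DESeq2 and limma-voom). Their median log2 change was 0.77 per spike-in count and 0.33 relative to all genes, beside 0.43 and -0.01 for all genes. Without WT 2, WT 3 and WT 4, 7 rose per spike-in count (49.1% of all genes) and 2 rose relative to all genes (2.51% of all genes). The medians were then 0.55 and 0.09, beside 0.43 and -0.00026 for all genes in those fits.

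Of the hem signals 3 rose relative to all genes with all libraries, where 13.7% of all genes rose. Bmp6, a BMP ligand, was at 4.43, 4.35, 4.98, 3.78 and 3.87 CPM in WT and at 12.3, 10.3, 12.6 and 17.7 CPM in dKO, with every dKO library above every WT library. Its relative log2 change was 1.62 (SE 0.15, edgeR adjusted p = 6.11e-05), and 1.68 (adjusted p = 0.00961) without WT 2, WT 3 and WT 4. Bmp4, also a BMP ligand, was at 5.05, 3.78, 2.95, 1.95 and 3.79 CPM in WT and at 7.83, 7.55, 7.82 and 5.74 CPM in dKO, again without overlap. It rose by 1.09 (log2, adjusted p = 0.00395), with 0.76 (adjusted p = 0.0684) without the 3 libraries. Wnt5a rose from 24.2 to 31.3 CPM (0.38, adjusted p = 0.00582, and 0.51, adjusted p = 0.0297, without them), and Wnt2b, at 8.53 CPM in WT and 6.78 in dKO, did not pass the test (-0.31, adjusted p = 0.170). Msx1 and Msx2, which BMP signals induce, had relative changes of -0.04 and 0.07 in the same libraries. Whether BMP signalling differed between the groups was not tested.

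**Figure D5:**
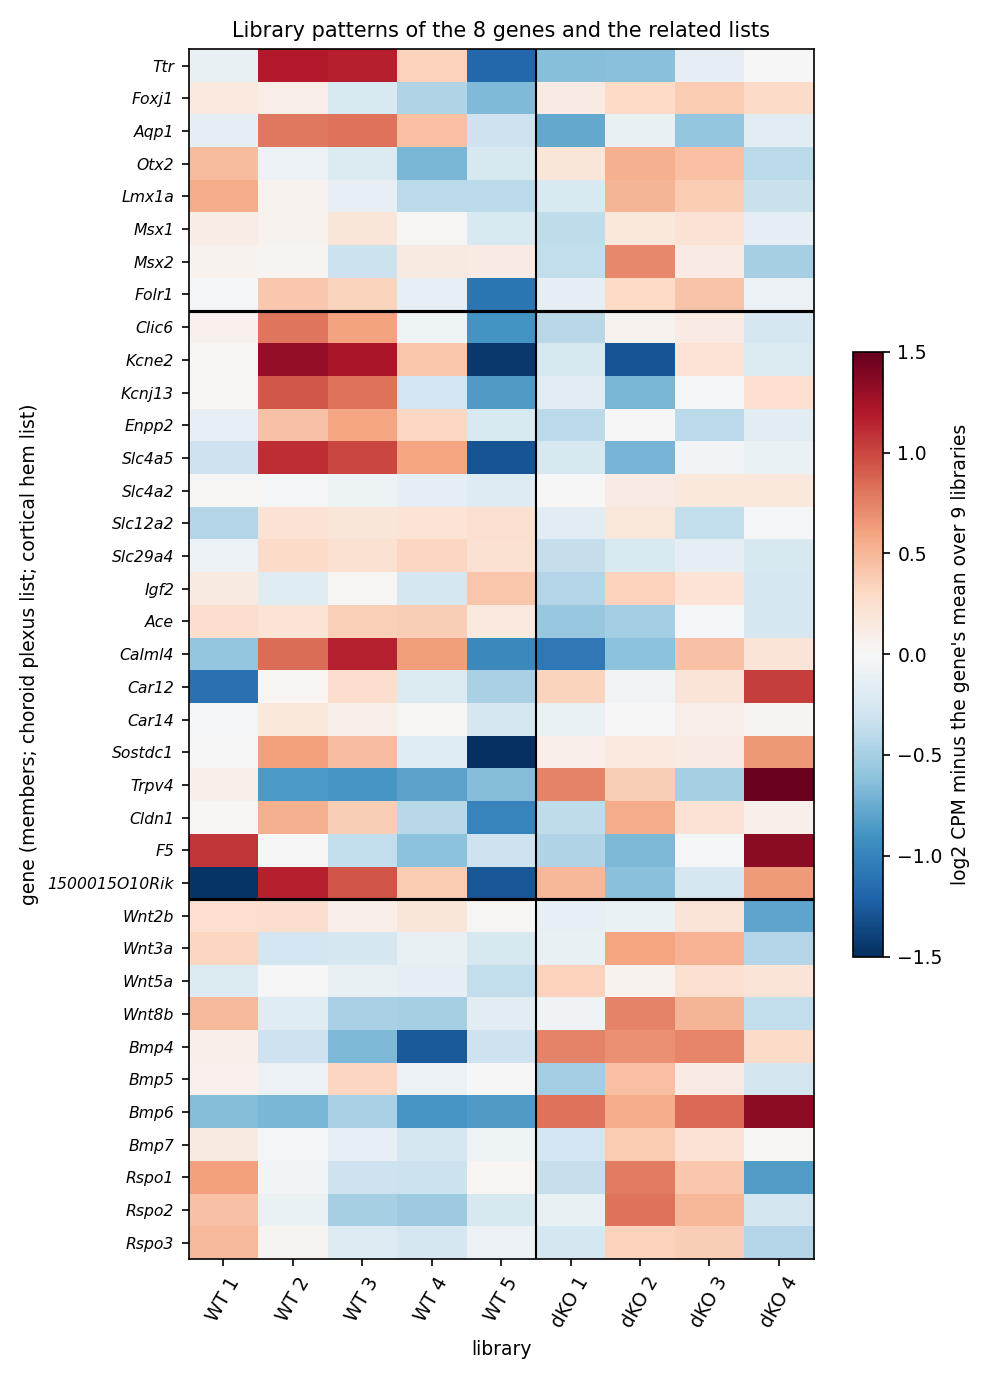
Log2 CPM of each gene minus its mean over the 9 libraries, for the 8 members, the 18 further choroid plexus genes and the 11 hem signals with a mean of at least 1 CPM. Colours saturate at ±1.5. The upper blocks hold genes that are red in WT 2 and WT 3, the lowest block holds genes that are red in WT 1, dKO 2 and dKO 3, and Bmp4 and Bmp6 are red in all dKO libraries.

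Genes of the motile cilia program were counted from a list of 26. It holds regulators as well as parts of cilia and is not a list of Foxj1 targets. Per spike-in count, 8 of 26 rose and 0 fell (0 lower at an unadjusted p under 0.05, and 0 by DESeq2 and limma-voom), where 61.1% of all genes rose and 0.698% fell. Their median log2 change was 0.27, beside 0.43 for all genes. Without WT 2, WT 3 and WT 4, 7 rose (49.1% of all genes) and 0 fell, again with 0 lower at an unadjusted p under 0.05. The median was then 0.41, beside 0.43 for all genes in that fit. On the relative scale edgeR called 0 of 26, with 1 higher and 2 lower at an unadjusted p under 0.05, DESeq2 called 0 higher and 1 lower, and limma-voom called 0. Their median relative change was -0.18 with all libraries and -0.01 without WT 2, WT 3 and WT 4, where edgeR again called 0 and 0 had an unadjusted p under 0.05. Foxj1 itself was at 0.47 and 0.51 in the same fits. Rfx2, a transcription factor of ciliated cells, had a relative change of 0.30 (edgeR adjusted p = 0.0655), while the dynein heavy chain Dnahc9 had -0.63 (adjusted p = 0.0723), the dynein intermediate chain Dnaic2 -0.53 (adjusted p = 0.102) and the adenylate kinase Ak7 -0.72 (adjusted p = 0.133). In the fit without those 3 libraries the relative changes were 0.25 for Rfx2, -0.02 for Dnahc9, -0.21 for Dnaic2 and -0.13 for Ak7. Of 5 cortical selector factors, 3 rose and 0 fell per spike-in count (61.1% and 0.698% of all genes). Relative to all genes 0 of the 5 rose and 2 fell (13.7% and 12.0% of all genes). Emx1, a transcription factor of the cortex beside the hem, fell relative to all genes from 50.5 to 41.0 CPM (-0.30, edgeR adjusted p = 0.0112). Its relative change was -0.16 (adjusted p = 0.284) without WT 2, WT 3 and WT 4. Per spike-in count it was not called (0.13, edgeR adjusted p = 0.382). Without those 3 libraries edgeR called 0 of the 5 relative to all genes, with 2 lower at an unadjusted p under 0.05.

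For each member the 3 genes whose log2 CPM was most like it over the 9 libraries were taken from 12450 candidates by Pearson's r, as a description. Ttr was followed most closely by Slc4a5, a bicarbonate transporter of the choroid plexus (r = 0.968), then by Chsy3 (0.962) and Wdr96 (0.955). Aqp1 was followed by Enpp2, the secreted enzyme autotaxin (0.986), Tmtc1 (0.978) and Ndufb10 (0.973). Folr1 was nearest to Ptprk (0.948), Prnd (0.943) and Car14, a carbonic anhydrase (0.922), and Foxj1 to Mlf1 (0.946), Slc4a2 (0.944) and Plcb4 (0.921). Otx2 was nearest to Galnt12 (0.948) and Cited4 (0.939), and Lmx1a to Clybl (0.956), Nqo1 (0.950) and Rundc1 (0.946). Msx1 was nearest to Prrg2 (0.940), Fam188b (0.903) and Wwox (0.902), and Msx2 to Xrcc3 (0.976), Hsd3b7 (0.944) and Ccnf (0.930). All values rest on the same 9 libraries, so no p is given.

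Markers of other tissue that the dissection could hold were summed in each library. Of 12 retina and pigment epithelium markers all were detected, 3 of them at a mean of at least 1 CPM. Their sum was 30.8 to 55.4 CPM in WT, with 50.1 to 55.4 in WT 2, WT 3 and WT 4, and 20.5 to 26.4 in dKO. The sum, made up mostly of Dct and Rlbp1, was highest in the libraries with the highest Ttr and Aqp1, and its part in those values was not tested. The list did not move as a whole: of 5 tested, 2 fell per spike-in count (Dct by 0.73 and Rlbp1 by 0.88 on the log2 scale, edgeR adjusted p = 0.000755 and 0.000212) and 2 rose (Mitf by 0.51 and Best1 by 1.16, adjusted p = 0.0169 and 0.00618). Among all genes 61.1% were called higher and 0.698% lower per spike-in count. Without WT 2, WT 3 and WT 4, 2 of the 5 were called higher and 0 lower (49.1% and 0.250% of all genes). The falls of Dct and Rlbp1 were thus not called without those libraries. Mitf was at 5.04 CPM in WT and 5.30 in dKO. The 14 diencephalon and midbrain markers summed to 34.8, 27.4, 23.9, 22.9 and 30.9 CPM in WT and 26.7, 38.1, 33.4 and 22.2 CPM in dKO. Only 3 of the 14 had a mean of at least 1 CPM, and the sum was made up mostly of Barhl2 and Tcf7l2. It was highest in WT 1, dKO 2 and dKO 3, the libraries in which Otx2 and Lmx1a were highest. Of those 3 markers, 1 (Tcf7l2) had these libraries as its highest, while Barhl2 was also high in WT 5 (12.0 CPM). The part of these markers in the Otx2 and Lmx1a values was not tested. Of 10 liver and yolk sac markers, which share Ttr as a product, Apoa4 and Serpina1a were at 0 in all libraries and the sum was 0.382 to 1.19 CPM. The 12 meninges and head mesenchyme markers summed to 832 to 1038 CPM in WT and 751 to 1097 in dKO, and the 10 macrophage markers to 86.1 to 104 and 103 to 150 CPM. The 11 surface ectoderm markers summed to 14.7 to 27.3 CPM in WT and 16.1 to 39.5 in dKO, highest in dKO 4. The 12 telencephalic markers, which check the labelled tissue, summed to 2333 to 2615 and 2447 to 2619 CPM. Within this even sum 1 of the 12 rose and 7 fell relative to all genes, where 13.7% of all genes rose and 12.0% fell. Nes, the intermediate filament of neural progenitors, rose from 784 to 1178 CPM (log2 0.59, edgeR adjusted p = 0.000172), while among neuronal markers Dcx fell by 0.48, Tbr1 by 0.35 and Gad2 by 0.57 (adjusted p = 0.000709, 0.00197 and 0.000908). Per spike-in count Dcx, Tbr1 and Gad2 were at -0.05, 0.09 and -0.15 (log2, edgeR adjusted p = 0.697, 0.517 and 0.268). On that scale 3 of the 12 rose and 1 fell (61.1% and 0.698% of all genes). Without WT 2, WT 3 and WT 4, 1 of the 12 rose and 2 fell relative to all genes (2.51% and 0.949% of all genes).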

How the data were processed

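The deposited files hold whole-number counts of reads, 1 file for each library, which the authors had not normalized. Counting was done on mm9 with STAR and HTSeq, per the submitters' processing notes; versions, annotation and strand setting were not stated. Per the labels' protocols, ERCC mix was added by cell number and stranded total RNA libraries were read as 100-bp pairs. The counter's own rows (32.0% to 41.3% of reads in no gene, and other uncounted reads) stayed out of library sizes and tests.

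Counts were fitted in R 4.3.3 with edgeR 4.0.16 (glmQLFit, glmQLFTest) on genes kept by filterByExpr (17182 of 34590, 99.9% of gene counts, all 8 members), with Benjamini-Hochberg adjustment over them. Library size was the total spike-in count, or the gene count with TMM factors. Fits without libraries kept the same genes. DESeq2 1.42.0 and limma-voom (limma 3.58.1) were alternatives, and the fits were tested on simulated data. Named were all members, the 4 genes of each related list with the smallest relative adjusted p (2 in lists under 10 genes) and the 3 most alike genes; Slc13a4, Kcne2, Clic6, Wnt8b and the named markers of other tissues and of the telencephalon were chosen after their values were seen. The members and lists were chosen with earlier results of these data known. Exon lengths came from GENCODE M21 and promoters from RefSeq on GRCm38.p6; 3 list genes were found under older symbols. Of the genes this rule names, 2 are not reported here. A planned comparison of Msx1 and Msx2 proteins was not run.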

Additional observations from a re-analysis of the deposited data

Results flagged for a closer look

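Among 34 checks of a group of 4 or 5 libraries, 2 had a library far from the rest, where chance gives about 1 in 20. For Foxj1 per 1000 spike-in counts, dKO 1 was at 2.21 and the other dKO libraries at 2.93 to 3.01. For Msx2, WT 3 was at 1.24 CPM and the other WT libraries at 1.59 to 1.70.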

How the results depend on the processing

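Foxj1 per spike-in count kept its call in all 18 alternatives, with log2 changes of 0.85 to 1.03 and adjusted p from 6.19e-11 to 0.0432. The log2 difference in gene counts per spike-in count was 0.394 to 0.498 with each library left out in turn, and 0.446 without WT 2, WT 3 and WT 4 (exact permutation p = 0.0667, the smallest that 15 assignments allow). Members called higher per spike-in count were 5, and 3 to 6 with each library left out, 1 when a change of at least 1.5-fold was tested, and 3 under the replicate block. Members called lower per spike-in count were 0, and 0 to 1 with each library left out, and 1 (Ttr) with no filter on low counts and under the replicate block. Relative to all genes, members called higher were 1, and 0 to 1 with each library left out, and 0 in the 1.5-fold test, without WT 2, WT 3 and WT 4, and under the replicate block. Members called lower were 1, 0 to 2 with each library left out, 0 in the 1.5-fold test and without WT 2, WT 3 and WT 4, and 2 under the replicate block. Ttr per spike-in count reversed to 0.71 without WT 2, WT 3 and WT 4. The cause was not tested.

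Of all genes, the 10495 called higher per spike-in count became 701 in the 1.5-fold test. The 120 called lower became 79 with DESeq2, 187 with no filter, 4 in the 1.5-fold test, 43 without WT 2, WT 3 and WT 4, and 67 to 203 with each library left out. Relative to all genes, 2355 higher and 2067 lower became 182 and 9 in the 1.5-fold test and 432 and 163 without the 3 libraries, and lower became 1369 without WT 4. Without WT 2, WT 3 and WT 4 only 2 WT libraries remained.

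Libraries of both groups carry replicate numbers, but numbers did not pair them: deviations of same-numbered libraries correlated at -0.17, -0.17, -0.35 and 0.13. With the number as a replicate block, in which WT 5 has no partner, Ttr was called lower (-0.54 per spike-in count, adjusted p = 0.000134, and also relative to all genes, adjusted p = 0.0244). Foxj1 relative (0.38, adjusted p = 0.0769), Folr1 (0.45, adjusted p = 0.0557) and Msx1 per spike-in count (0.35, adjusted p = 0.0581) lost their calls.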
